A study of Homo sapiens with 14 samples.

Results

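BCR and ABL1, the genes joined by the Philadelphia chromosome translocation in K562 cells, were examined in transcriptome-wide structure probing profiles. Their transcripts were chosen by gene name: every row whose Ensembl transcript identifier carries the name BCR or ABL1 in GENCODE release 44. Of 20512 transcript rows in all, 2 were found, and both belong to ABL1. Under the 15 BCR transcripts that GENCODE lists there were 0 rows in each of the 4 profiles, so every value below is an ABL1 value. A further 401 rows carried identifiers without a name in that release, and whether any of them is a BCR transcript could not be told. ABL1 itself has 3 annotated transcripts, of which ABL1-201 (ENST00000318560) had a row in 4 of 4 profiles and ABL1-202 (ENST00000372348) a row only in the icLASER in vitro profile.

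K562 is an established line from a chronic myelogenous leukemia. In icSHAPE, NAI-N3 acylates the 2′ hydroxyl of flexible nucleotides (100 mM, 5 min), and in icLASER, NAz-N3 (from a 1 M stock, 10 min of long-wavelength UV light) reacts with the solvent-exposed C8 of purines. Cells were treated directly (in vivo), or total RNA was isolated, refolded and then treated (in vitro); polyadenylated RNA was sequenced against cells given DMSO (icSHAPE) or kept from UV light (icLASER). Of the 14 libraries, 8 belong to icSHAPE (3 in vivo, 2 in vitro and 3 given DMSO) and 6 to icLASER (2 of each condition and 2 without UV), and the authors merged them into 1 profile for each reagent and condition. Each row of a profile holds an RPKM value (reads per kilobase of transcript, scaled to library size) and a score from 0 to 1 for each nucleotide, where a higher score means more reagent-dependent stops, or NULL where no score was assigned. There is therefore no replicate error, no difference below was tested, and the read depth behind a score is unknown.

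BCR encodes a scaffold with an oligomerization domain, a guanine nucleotide exchange domain and a GTPase-activating domain, and ABL1 encodes a tyrosine kinase that is held inactive by its own amino-terminal cap and by its SH3 and SH2 domains. The translocation places the 5′ exons of BCR in front of ABL1 exon 2 and removes the ABL1 first exon from the fused RNA. The fused protein oligomerizes through BCR, is constitutively active, and signals through GRB2, CRKL, the RAS and MAP kinase cascade and STAT5. In K562 the junction joins BCR exon 14 to ABL1 exon 2. ABL1-201 and ABL1-202 differ in the first exon (called 1a and 1b) and share exons 2 to 11, so the first exon can be read only from unfused ABL1 RNA, while reads of fused and unfused RNA cannot be told apart in exons 2 to 11.

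The sequences at the join are shown because the density of scores differed between ABL1-201 exon 1 as a whole and the later exons. Among scored positions within 30 nt of the join itself, exon 1 was not the sparser side in every profile. They are the last 30 nt of BCR exon 14 (chr22:23290384-23290413), of ABL1-201 exon 1 (chr9:130835496-130835525) and of ABL1-202 exon 1 (chr9:130714426-130714455), and the first 30 nt of ABL1 exon 2 (chr9:130854064-130854093). All are on the plus strand of GRCh38 and read from the GENCODE transcripts, and capitals mark the 3 bases that touch the junction.
BCR exon 14 end: actcagccactggatttaagcagagttCAA
ABL1-201 exon 1 end: tgtcctcgtcctccagctgttatctggAAG
ABL1-202 exon 1 end: gtccacactgcaatgtttttgtggaacATG
ABL1 exon 2 start: AAGcccttcagcggccagtagcatctgact

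The same 30 nt of exon 2 are shown again with capitals at each nucleotide whose score was at least 0.5 (called reactive), to show which bases carried signal on the fused side of the junction.
icSHAPE in vitro: aagcccTtcagcggccaGtaGcaTctGact
icSHAPE in vivo: AagcccTTCagcggcCagtagCAtctgacT
icLASER in vitro: aagcccttcagcggccaGtagcAtctGact
icLASER in vivo: aagcccTtcAgcggccagtagCatctGact

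In these 30 nt, 5 positions were reactive with icSHAPE in vitro and 8 in vivo, and 3 were reactive with icLASER in vitro and 4 in vivo. The mean score was 0.195 and 0.330 for icSHAPE in vitro and in vivo, and 0.135 and 0.122 for icLASER. A score of exactly 0 was given to 21, 13, 20 and 26 of the 30 positions, in the same order. The icSHAPE capitals may stand 1 nt 5′ of the modified base, since over all rows whose length matched the reference the icSHAPE score separated the bases most sharply when moved 1 nt downstream (a spread between the highest and lowest base mean of 0.196 against 0.0717 in vivo, and 0.146 against 0.0669 in vitro).

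Among the transcripts with a row, ABL1-201 ranked in the lower part with icSHAPE and somewhat above the middle with icLASER. The RPKM of ABL1-201 was 8.73 in the icSHAPE in vitro profile, 9.30 in icSHAPE in vivo, 18.4 in icLASER in vitro and 14.1 in icLASER in vivo. The median RPKM of all rows was 15.9, 12.4, 12.2 and 12.2 in the same profiles, which put ABL1-201 above 18.5%, 34.1%, 65.6% and 56.5% of rows. ABL1 thus lay below the median with icSHAPE and above it with icLASER. ABL1-202 had an RPKM of 6.98 in icLASER in vitro, above 15.5% of rows. The rows of each profile begin at about 5 RPKM (the lowest were 5.13, 5.01, 5.01 and 5.02), so a gene without a row lies under this limit or was otherwise left out, and the missing BCR rows give no level for BCR.

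In vivo the ABL1-201 RPKM was 1.07 times the in vitro value with icSHAPE and 0.767 times with icLASER. RPKM was higher in vivo in 70.1% of the 11713 rows in both icSHAPE profiles, with a median ratio of 1.10, and ABL1-201 lay above 43.5% of these rows. With icLASER, RPKM was lower in vivo in 37.7% of 13809 rows, the median ratio was 1.08, and ABL1-201 lay above 10.2% of rows. Relative to the median row, the ABL1 ratio was 0.973 with icSHAPE and 0.711 with icLASER. The profiles also differed in rRNA. The 18S row had 18459 RPKM in vitro and 1484 in vivo with icSHAPE, and 17758 and 1257 with icLASER. The 28S row was also lower in vivo with both reagents, and the part of rRNA in the ABL1 ratios was not tested. Among rows of at least 4000 nt the median ratio was 1.01 with icSHAPE and 0.935 with icLASER, and ABL1-201 lay above 63.6% of 418 and 15.5% of 561 such rows. The icSHAPE ratio was thus below the median of all rows and above that of long rows, and the icLASER ratio was below both. The BCR and ABL1 relatives gave nothing to set beside these values: the paralogs ABR and ABL2 and the 9 annotated BCRP pseudogenes had 0 rows.

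Of 33 genes listed for signaling downstream of the fusion, 18 (54.5%) had a row in at least 1 profile and 12 (36.4%) had the same row in all 4. Of all 19676 coding genes in the annotation, 21.4% and 12.1% did. The 15 without any row were SOS1, a RAS exchange factor; SHC1, an adaptor; CBL, a ubiquitin ligase; PIK3CA, PIK3R1 and PIK3R2, subunits of PI3 kinase; the kinase AKT1; HRAS; the MAP kinase MAPK3; the lipid phosphatase INPP5D; the docking proteins DOK1 and DOK2; the ABL interactors ABI1 and ABI2; and RIN1, an activator of ABL kinases. Where the list had rows, its median RPKM was 18.6 and 21.4 in icSHAPE in vitro and in vivo and 19.2 and 15.4 in icLASER. ABL1-201 was exceeded by 10 of 13 and 11 of 14 of these genes with icSHAPE, and by 8 of 16 in both icLASER profiles. The small GTPases RHOA (60.9 and 75.9 RPKM with icSHAPE in vitro and in vivo) and RAC1 (73.3 and 101 with icLASER) were the highest of the list and are named here for their level.

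**Figure D1:**
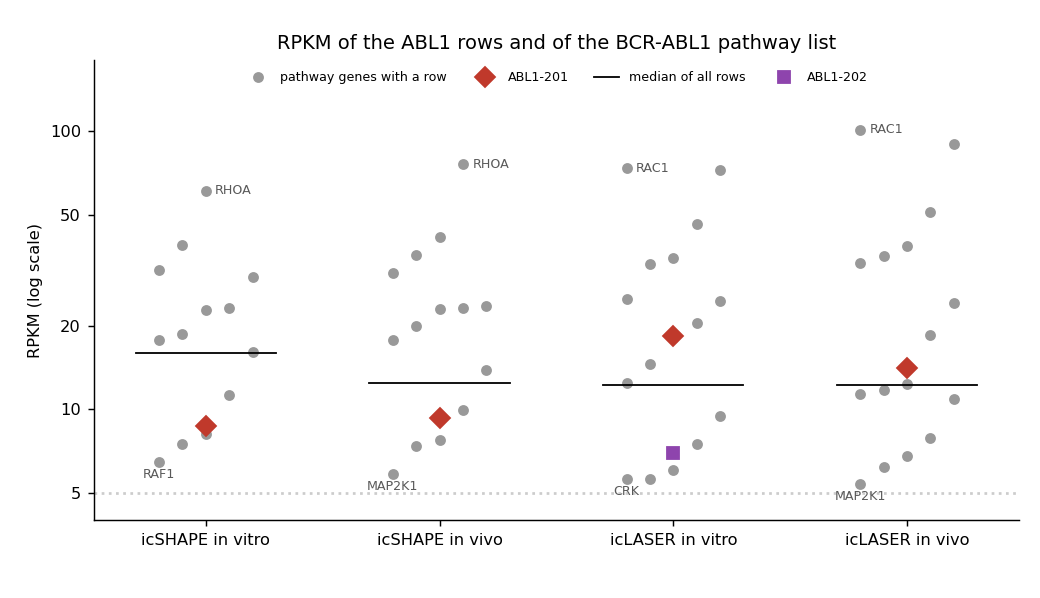
RPKM on a log scale of the ABL1-201 row (red diamonds), the ABL1-202 row (purple square), and the pathway genes with a row (grey circles) in the 4 profiles; black bars mark the median of all rows and the dotted line 5 RPKM. ABL1-201 sits below the median bar with icSHAPE (8.73 and 9.30) and above it with icLASER (18.4 and 14.1).

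RPKM of the pathway genes was higher in vivo for 10 of 13 with icSHAPE (76.9%, against 70.1% of all rows; median ratio 1.20) and for 6 of 14 with icLASER (42.9%, against 62.3%; median ratio 0.965). With icSHAPE the lowest ratios in vivo over in vitro were those of RAC1 (0.791), the adaptor CRKL (0.875) and the phosphatase PTPN11 (0.984). The highest were those of RAC2 (1.32), a hematopoietic GTPase, STAT5B (1.30), a transcription factor, and the kinase MAP2K2 (1.26). With icLASER the lowest belonged to NRAS (0.687), STAT5A (0.779), the relative of STAT5B, and CRKL (0.833). RAC2 (1.46), RAC1 (1.38) and MAP2K2 (1.37) were the highest with icLASER. The ABL1 ratio with icLASER, 0.767, lay between those of NRAS and STAT5A. Across all 4 RPKM values, the genes most like ABL1-201 among 2303 protein-coding genes with a row in every profile were ARF3, a small GTPase (Euclidean distance 0.193 in log2 RPKM), CAVIN1, a caveola coat protein (0.219), and SLC38A2, an amino acid transporter (0.254). ARF3 had RPKM of 9.46, 9.88, 19.7 and 14.9 in the order of the ABL1 values above.

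Most of the listed markers of the cell line had rows. Of 10 genes listed for the erythroid leukemia line, 9 had rows, led by the fetal globin genes HBG1 (2105 and 2652 RPKM with icSHAPE in vitro and in vivo, 1225 and 1763 with icLASER) and HBG2. The erythroid factor GATA1 had 73.0, 87.8, 85.6 and 99.7 RPKM in the 4 profiles, and TAL1 had no row. Of 5 markers of other cells, the epithelial gene EPCAM had rows (20.3 to 27.1 RPKM), and PTPRC, CD3E, COL1A1 and ALB had none. Since only 21.4% of all coding genes had a row, the missing rows do not set these markers apart.

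The first exon and the fused exons differed sharply in whether a position had a score at all. The ABL1-201 row is 5766 nt long, of which exon 1 takes the first 460 and exons 2 to 11 the remaining 5306. In exon 1, 207 of 460 nt (45.0%) were NULL with icSHAPE and 240 (52.2%) with icLASER. The first 188 of these nt are not in the reference transcript and were put at the 5′ end by the base contrast of the scores. They held 146 of the icSHAPE and 109 of the icLASER NULL positions, so that the 272 nt of exon 1 in the reference were 22.4% NULL with icSHAPE and 48.2% with icLASER. In exons 2 to 11 the only NULL positions were the last 30 nt of the row, with both reagents. The icSHAPE gaps were row positions 1 to 131, 161 to 175, 257 to 288 and 419 to 447. The icLASER gaps were positions 1 to 46, 89 to 102, 129 to 177, 210 to 305 and 338 to 372. The last gap thus ended 13 nt before exon 2 with icSHAPE and 88 nt before it with icLASER, and scoring was unbroken from there to the last 30 nt. The icLASER gaps all lay upstream of the start codon at row position 382, whereas the last icSHAPE gap was in the coding part of exon 1. Within a reagent the in vivo and in vitro profiles had the same NULL positions throughout the row, as did 79.6% of 11713 rows with icSHAPE and 71.8% of 13809 with icLASER.

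The share of unscored positions in exon 1 was larger than in most other first exons. Among coding rows of matched length with a first exon of at least 100 nt and at least 500 nt after it, the median first exon had 0% NULL past the first 6 nt, and ABL1-201 had more NULL than 92.5%, 92.0%, 92.6% and 92.3% of them in icSHAPE in vitro and in vivo and icLASER in vitro and in vivo. With only the 272 nt in the reference, a choice made after the values were seen, these were 88.2%, 87.6%, 91.9% and 91.9%. Some gap in the first exon alone, of any size, was found in 23.7%, 23.4%, 30.8% and 29.8% of these rows, so having one was not unusual. The 272 nt of ABL1-201 exon 1 held in the reference are 75.7% G and C, against 58.4% in exons 2 to 11 and a median of 64.5% over 4048 first exons, of which 91.3% were lower. The part of base composition in the gaps was not tested.

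The scored nucleotides of exon 1 were mostly exactly 0. With icSHAPE, 6.72% of scored exon 1 positions were above 0 in vitro (17 of 253) and 13.04% in vivo (33 of 253), against 38.0% and 57.6% of the 5276 scored positions in exons 2 to 11. With icLASER, 8.18% were above 0 in vitro (18 of 220) and 0.909% in vivo (2 of 220), against 60.1% and 30.1% on the fused side. Within the coding sequence alone the difference between exon 1 and the later exons was −18.4, −15.2, −39.9 and −14.6 percentage points, so the 5′ untranslated region carried part of it. Over the whole row the share was 5.65, 4.42 and 7.34 times as high after the boundary as before it in the first 3 profiles. In icLASER in vivo exon 1 held too few scores above 0 for such a ratio, and the share after the boundary was uneven, with 9.36% in exons 2 and 3 together and 66.9% at row positions 4681 to 5736. The 95% Wilson intervals, which cover counting of positions only, did not overlap between the sides in any profile. These intervals treat neighboring positions of 1 merged profile as independent, and no such comparison over other rows is given, so they are a description only. A lower share in exon 1 than in later exons was also found in 68.3%, 69.5%, 67.5% and 80.1% of coding rows, so the direction in 4 of 4 profiles is close to the background. The size stood further out: the difference was −31.2, −44.6, −51.9 and −29.2 percentage points in ABL1-201 against medians of −9.22, −10.9, −10.2 and −17.4 over coding rows, and was larger than in 79.8%, 81.6%, 90.0% and 69.2% of them. Restricting these rows to an RPKM within 0.8-fold of that of ABL1 in either direction, a choice made after the values were seen, gave 87.9%, 84.2%, 83.6% and 66.6%.

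The few scores above 0 in exon 1 were high and were densest next to exon 2. In icSHAPE in vitro all 17 were 1, and in icSHAPE in vivo 26 of 33, in icLASER in vitro 15 of 18 and in icLASER in vivo 2 of 2 were 1. The last 13 nt of exon 1, scored in every profile, had a mean of 0.308 with icSHAPE in vitro (4 above 0), 0.759 with icSHAPE in vivo (11 above 0), 0.380 with icLASER in vitro (7 above 0) and 0.0769 with icLASER in vivo (1 above 0). The earlier scored positions of exon 1 held more of the scores above 0 in the first 3 profiles (13 of 17, 22 of 33 and 11 of 18, and 1 of 2 in icLASER in vivo), but spread over 240 positions with icSHAPE and 207 with icLASER, with means of 0.0542, 0.0870, 0.0531 and 0.00483. The first of them lay at row position 196, 193, 188 and 399. In icLASER in vivo exon 1 thus had scores above 0 at 2 positions in all.

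**Figure D2:**
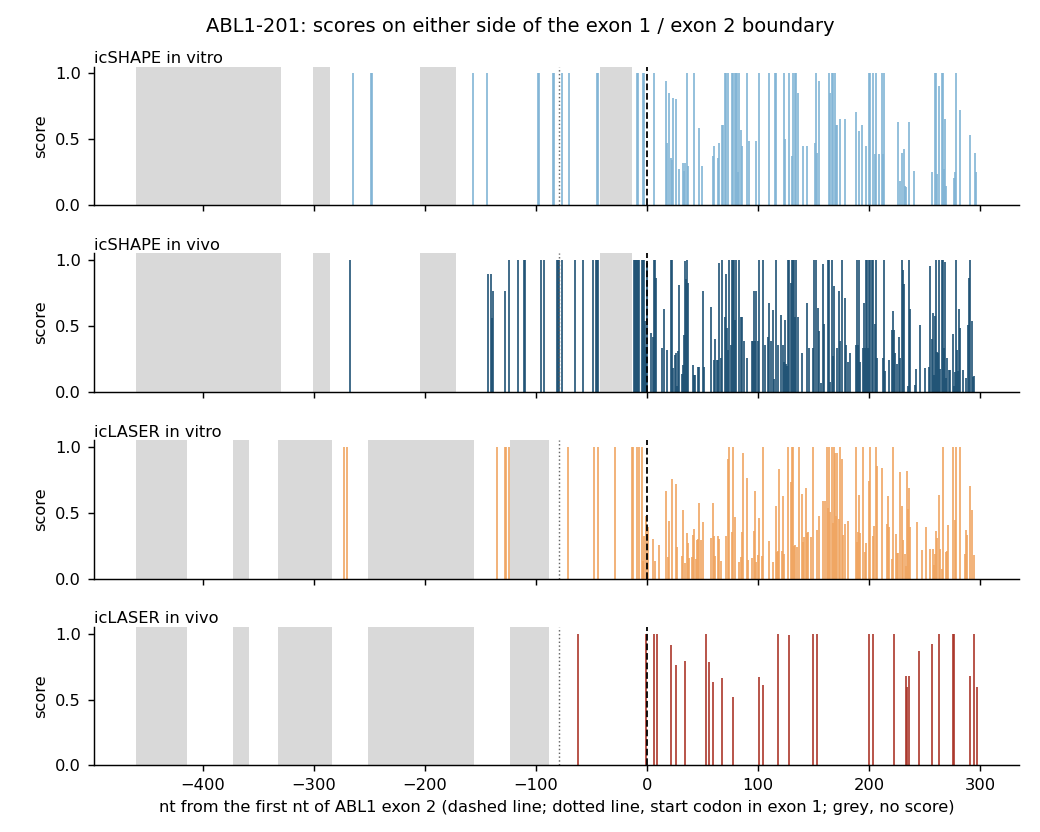
Score of each nucleotide (vertical lines, 0 to 1) from the 5′ end of ABL1-201 to 300 nt into the fused exons, against distance in nt from the first nucleotide of exon 2 (dashed line), with the start codon dotted and unscored stretches in grey. Grey gaps and empty stretches fill exon 1 in all 4 profiles, and over exon 1 as a whole scores above 0 are sparser than to the right of the dashed line in each.

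ABL1-202 provided a view of the alternative first exon. Its row is 3824 nt long and, placed by its scores (Pearson r = 0.615 over 3504 positions with ABL1-201 at the best alignment, 0.122 at the next), holds 510 nt of exon 1b and stops at the end of the coding sequence. Exon 1b was scored at 504 of 510 nt and the rest at all but the last 30 nt. Scores above 0 made up 20.04% of exon 1b and 51.1% of exons 2 to 11, and the mean score was 0.169 and 0.162. Unlike exon 1a in the same profile (mean 0.0724), exon 1b thus had about the mean of the fused exons, carried by fewer positions. Its G and C content was 41.6%, higher than in only 3.09% of 4048 first exons. Over the 3284 positions of exons 2 to 11 scored in both rows, r was 0.679 and 1162 scores (35.4%) were identical, although the underlying RNA sequence is the same. Since the row was placed by its likeness to ABL1-201 in this profile, these values describe the placement chosen and are no separate evidence for it.

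Inside the fused part, all 10 exons were fully scored, apart from the row end in exon 11. The mean score of exons 2 to 11 was 0.147 and 0.171 with icSHAPE in vitro and in vivo and 0.174 and 0.139 with icLASER, and 11.7%, 11.5%, 12.04% and 12.5% of positions were reactive, a share that depends on the threshold of 0.5 (17.2% to 20.6% at 0.3, 6.46% to 7.15% at 0.8). Over the whole row, ABL1-201 had a higher mean than 51.1%, 51.2%, 79.6% and 24.0% of rows. Its share of scores above 0 in icLASER in vivo, 28.9%, was above only 6.11% of 2879 rows of like RPKM (median 52.2%), whereas in the other 3 profiles it was above 79.5%, 72.8% and 51.9% of such rows. The icLASER in vivo profile of ABL1 was therefore sparse for its RPKM.

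Exon 2, the most 5′ of the 10 fused exons, stood at opposite ends in the reagents in vivo. It codes for the start of the SH3 domain that is kept in the fused protein. Its mean score was 0.261 with icSHAPE in vitro and 0.354 in vivo, the highest of the 10 exons in both profiles. With icLASER it was 0.249 in vitro and 0.0767 in vivo, the latter the lowest of the 10 and resting on 16 of 174 positions above 0. Both in vivo profiles also changed along the row. From row positions 461 to 1515 to positions 4681 to 5736, the icSHAPE mean in vivo went from 0.260 to 0.0964. Over the same stretches the icLASER share above 0 in vivo went from 13.3% to 66.9%. The part of position in the exon 2 values was not tested. The medians over exons 2 to 11 were 0.2002, 0.222, 0.198 and 0.11996. Exon 3, which continues into the SH2 domain, had means of 0.205, 0.287, 0.244 and 0.0845. Of its own means in the 4 profiles, as of those of exon 2, the highest was in icSHAPE in vivo and the lowest in icLASER in vivo.

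Exons 4 to 9, which hold the kinase domain, had a mean of 0.207 and 0.223 with icSHAPE in vitro and in vivo and 0.201 and 0.121 with icLASER. Single exons among them ranged over 0.167 to 0.250, 0.201 to 0.277, 0.151 to 0.279 and 0.0806 to 0.172 in these profiles, and in icLASER in vitro included both the lowest (exon 7) and the highest (exon 5) of the 10. Exon 5 was the highest exon in both icLASER profiles, at 0.279 in vitro and 0.172 in vivo. Exon 4 was the only one of the 10 with a lower icSHAPE mean in vivo (0.214) than in vitro (0.250). The coding part of exon 11, 1715 nt for the long carboxy-terminal region with DNA- and actin-binding segments, had means of 0.148, 0.167, 0.213 and 0.126. Exon 11 as a whole had the lowest icSHAPE mean of the 10 exons, 0.122 in vitro and 0.140 in vivo.

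Directly across the boundary the score density fell within the range of the other junctions on the fused side. In the first 30 nt after each junction, scores above 0 numbered 9, 17, 10 and 4 in exon 2 (icSHAPE in vitro, in vivo, icLASER in vitro, in vivo), and ranged over 6 to 13, 10 to 22, 10 to 20 and 1 to 9 at the other 9 junctions. In the last 30 nt before the junction, exon 1 had scores above 0 at 4 of 13 scored positions with icSHAPE in vitro, 11 of 13 with icSHAPE in vivo, and 9 and 1 of 30 with icLASER in vitro and in vivo. As a share of scored positions this was 30.8%, 84.6%, 30% and 3.33%, against 23.3% to 50%, 50% to 70%, 43.3% to 66.7% and 0% to 26.7% before the other 9 junctions. The exon 1 side was thus above all 9 others in icSHAPE in vivo, below all 9 in icLASER in vitro and within their range in the other profiles.

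By mRNA region, the 5′ untranslated region (381 nt) had low scores throughout, and the coding sequence (3393 nt) and the 3′ untranslated region (1992 nt) stood in the opposite order in icLASER in vivo. The 5′ region means were 0.0443, 0.0635, 0.0426 and 0 in the 4 profiles, over 203 scored positions with icSHAPE and 141 with icLASER. These lay above 4.65%, 4.48%, 2.29% and 0% of the 5′ regions of coding rows, whose medians were 0.159, 0.186, 0.202 and 0.161. The 188 nt outside the reference held 42 of the scored positions with icSHAPE and 79 with icLASER. Of those, 0 were above 0 with icSHAPE, and 1 in vitro and 0 in vivo with icLASER. The compared rows have the reference length, so the 5′ comparison is not like for like. The coding sequence had means of 0.175, 0.205 and 0.211 in icSHAPE in vitro, icSHAPE in vivo and icLASER in vitro, and the 3′ region 0.0987, 0.117 and 0.110. In icLASER in vivo the mean was 0.116 in the coding sequence and 0.173 in the 3′ region. That order held only with scores of 0 kept: without them the coding sequence was 0.359 higher. The coding sequence of ABL1 lay above 69.1%, 78.2% and 88.7% of coding rows in the first 3 profiles and above 7.43% in icLASER in vivo. The 3′ region lay above 41.0%, 29.9%, 52.3% and 59.7%.

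**Figure D3:**
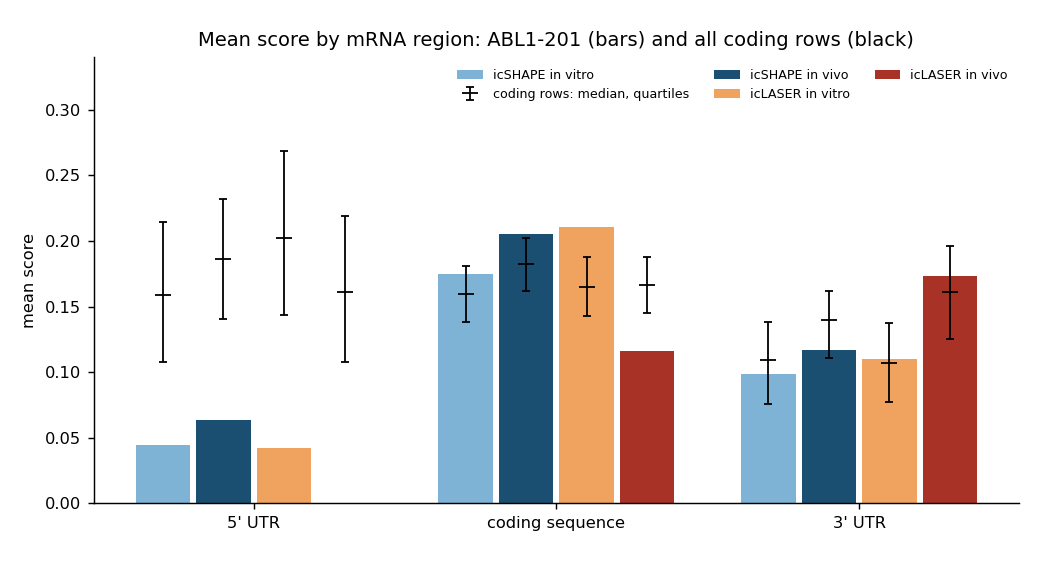
Mean score of the 5′ untranslated region, coding sequence and 3′ untranslated region of ABL1-201 (bars, by profile) beside the median and quartiles over all coding rows of matched length (black). The 5′ bars (0 to 0.0635) sit under the quartiles, and the icLASER in vivo bar is lowest in the coding sequence (0.116) and highest in the 3′ region (0.173).

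The start codon lies in exon 1 at row positions 382 to 384 and had an icLASER score of 0 at A, U and G in vitro and in vivo. A score of 0 was usual there, being given to 91.8% of scored exon 1 positions in vitro and 99.1% in vivo. With icSHAPE the scores were 0, 0 and 1 in vitro and 1, 0 and 1 in vivo. Moved 1 nt downstream, as the icSHAPE scores may need to be, they were 0, 0 and 0 in vitro and 1, 1 and 0 in vivo. At the stop codon UAG in exon 11, icSHAPE scored 0.333, 0 and 0 in vitro and 0, 0.105 and 0.105 in vivo. Moved 1 nt downstream, these were 0, 0.333 and 0 in vitro and 0.483, 0 and 0.105 in vivo. The icLASER scores at the stop codon were 0.0910, 0.207 and 0.429 in vitro and 0, 0.491 and 0 in vivo. No stop codon position reached 0.5.

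By base, icSHAPE scores were highest at A and icLASER scores at G. The icLASER in vitro contrast of G with C and U was used to place the row on the reference, so the order in that profile is a description set by the placement, and the other 3 profiles were not used for it. In the 5578 nt that the reference covers, the icSHAPE mean was 0.208 at A, 0.163 at U, 0.125 at G and 0.105 at C in vitro, and 0.237, 0.191, 0.146 and 0.132 in vivo. With icSHAPE scores moved 1 nt downstream, A and U remained the highest, but G fell below C. The means were then 0.283 at A, 0.203 at U, 0.0661 at G and 0.0826 at C in vitro, and 0.335, 0.268, 0.0740 and 0.0829 in vivo. In vitro G had an icLASER mean of 0.324, followed by A (0.182), U (0.104) and C (0.0674), close to the means over all rows of matched length (0.290, 0.139, 0.0975 and 0.0633). In vivo the order was the same, with 0.212 for G, 0.129 for A, 0.117 for U and 0.0785 for C, and the G mean was below that of all rows (0.265). A and G together held 85.8% of the reactive icLASER positions in vitro and 69.4% in vivo, and made up 50.4% of the scored positions.

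Between conditions, the reagents gave differences of opposite sign over ABL1-201. With icSHAPE the row averaged 0.143 in vitro and 0.169 in vivo. The difference of 0.0257 came to 0.00302 when each profile was scaled by its own mean score. Scores were higher in vivo at 2144 positions, lower at 1272 and equal at 2113. A higher mean in vivo was found in 90.0% of 11499 rows, with a median difference of 0.0243, and ABL1-201 lay above 53.1% of them. Among 418 rows of at least 4000 nt the median was 0.0306, and ABL1-201 lay above 36.6%. With icLASER the row averaged 0.170 in vitro and 0.133 in vivo, which differ by −0.0371, with 1208 positions higher, 2258 lower and 2030 equal. A lower icLASER mean in vivo was found in 33.0% of 13593 rows, the median difference was 0.00781, and ABL1-201 lay above 2.17% of rows. In the same comparison with rows of at least 4000 nt, added for both reagents after the values were seen, 79.9% of 561 rows had a lower icLASER mean in vivo, the median was −0.0148, and ABL1-201 lay above 15.5%. Row length thus moved with the icLASER difference, and its part in the ABL1 value was not tested.

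The icLASER difference was spread over the coding exons and was positive near the 3′ end. It was −0.172 in exon 2, −0.159 in exon 3, −0.0950 in exon 4, −0.107 in exon 5, −0.0691 in exon 6, −0.0577 in exon 7, −0.0618 in exon 8, −0.111 in exon 9 and −0.0570 in exon 10. All 10 exons of the fused part had a lower icLASER mean in vivo, with the smallest difference, −0.00701, in exon 11. The coding sequence as a whole differed by −0.0949 and the 3′ untranslated region by 0.0634. In windows of 100 nt counted from the first nucleotide of exon 2, 43 of 53 had a lower icLASER mean in vivo, and 42 of 53 a higher icSHAPE mean. Both held at once in 35 windows.

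The 10 windows higher in vivo with icLASER were in the 3′ untranslated region. The last 9 formed an unbroken run to the row end that began 1087 nt after the stop codon, and the other, at row positions 4461 to 4560, differed by 0.0120 and was followed by 3 windows lower in vivo. In the last window the icLASER mean was 0.0780 in vitro and 0.593 in vivo. Over the last 500 scored nt, the icLASER in vivo mean was 0.314, against 0.115 in the rest of the row, and 82.8% of scores were above 0, against 23.5%. In the other 3 profiles the mean went the opposite way, at 0.0679 (icSHAPE in vitro), 0.0810 (icSHAPE in vivo) and 0.0722 (icLASER in vitro) in the last 500 nt against 0.151, 0.177 and 0.1802 in the rest. The share of scores above 0 was higher in the last 500 nt there too, at 49.6%, 65.2% and 68.6% against 35.2%, 54.6% and 56.9%. A higher mean in the last 500 nt was found in 78.4% of 612 icLASER in vivo rows of at least 4000 nt, with a median difference of 0.0555. The ABL1-201 difference of 0.199 was larger than in 94.3% of them. In icLASER in vitro, 5.19% of 828 such rows had the higher mean at the 3′ end.

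**Figure D4:**
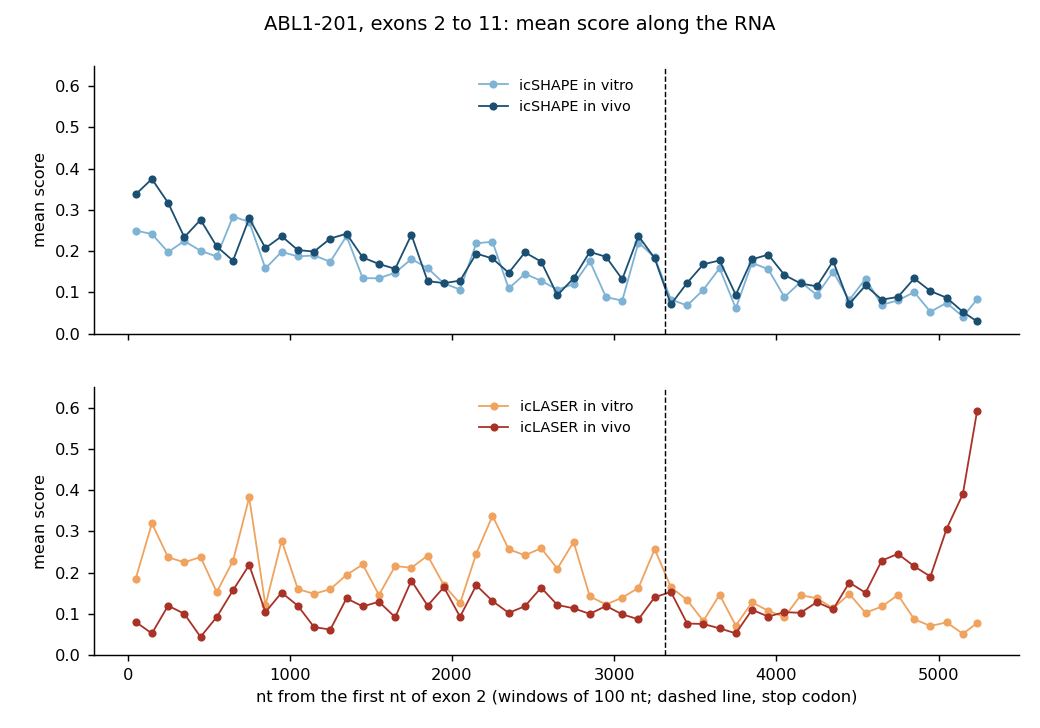
Mean score in windows of 100 nt along exons 2 to 11 of ABL1-201 (x axis, nt from the first nucleotide of exon 2; dashed line, stop codon), in vitro and in vivo, for icSHAPE (top) and icLASER (bottom). icSHAPE in vivo runs slightly above in vitro over most of the row, whereas icLASER in vivo runs below in vitro over the coding sequence and climbs to 0.593 in the last window.

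The most negative icLASER difference and the most positive icSHAPE difference in the coding sequence lay near the join of exons 2 and 3. Of all windows of 30 nt in the coding part of a fused exon, the most negative icLASER difference was at chr9:130854206-130854235 (plus strand, GRCh38), in the last bases of exon 2, where 17 positions were lower in vivo and 1 higher. The mean went from 0.419 to 0.0667 and reactive positions from 12 to 2. The window is shown with reactive positions in capitals.
icLASER in vitro: cAgtggaGataacactCtAaGCATAaCTaA
icLASER in vivo: cagtggaGataAcactctaagcataactaa

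The most positive icSHAPE difference was at chr9:130854802-130854831, at the start of exon 3, with 16 positions higher in vivo and 2 lower. The mean went from 0.199 to 0.440 and reactive positions from 7 to 11. In this window the icLASER mean differed by −0.221, and in the exon 2 window the icSHAPE mean differed by 0.0381.
icSHAPE in vitro: tgaAaagctccggGtcTtAggctatAAtCa
icSHAPE in vivo: TgaAaagctccgggTcTtagGcTAtAATCa

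The most negative icSHAPE difference was in exon 4 at chr9:130862981-130863010, where the mean went from 0.529 to 0.274 and reactive positions from 15 to 8. In the coding part, icLASER had its most positive difference in exon 11 at chr9:130884355-130884384, from 0.153 to 0.317, with 3 reactive positions in vitro and 10 in vivo. These windows were picked as the extremes of the coding part of exons 2 to 11, so their values are a description. In the 3′ untranslated region the icLASER difference reached 0.515, in the last of the windows counted from exon 2.

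Position by position, the icSHAPE profiles of ABL1-201 were more alike than the icLASER profiles. Over the 5276 positions of exons 2 to 11, which lie in 1 transcript with 1 merged profile per condition, Pearson r between in vitro and in vivo was 0.537 with icSHAPE and 0.338 with icLASER. The median r over all rows was 0.498 and 0.562, so the ABL1-201 value was above 60.9% of rows with icSHAPE and 7.81% with icLASER. Between the reagents r was 0.345 in vitro and 0.223 in vivo, against medians of 0.377 and 0.365. Of the 618 and 608 positions reactive with icSHAPE in vitro and in vivo, 292 were shared (47.2% and 48.0%), and of the 635 and 659 with icLASER, 239 (37.6% and 36.3%). For comparison, 11.7% and 11.5% of all 5276 positions were reactive with icSHAPE in vitro and in vivo, and 12.04% and 12.5% with icLASER. Reactive positions in all 4 profiles numbered 53, and 3679 of the 5276 were reactive in none.

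Between conditions the pathway genes went one way with icSHAPE and were evenly split with icLASER. With icSHAPE the mean score was higher in vivo in 13 of 13 pathway genes, against 90.0% of all rows, with a median difference of 0.0270. With icLASER it was higher in 7 of 14 (against 67.0% of all rows), with a median of −0.00180. NRAS, a RAS protein, had a difference of −0.0245 with icLASER and 0.0336 with icSHAPE, and STAT5A had −0.0185 and 0.0558, the same signs as ABL1. RAC2 was higher in vivo with both, by 0.0261 and 0.0270. The 3 genes closest to ABL1 in RPKM also had lower icLASER means in vivo: 0.1496 and 0.133 in ARF3, 0.168 and 0.152 in CAVIN1, and 0.167 and 0.121 in SLC38A2, in vitro and in vivo.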

How the data were processed

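The authors aligned reads to the Ensembl release 88 transcriptome (GRCh38) and made per-position values with the icSHAPE pipeline, with its minimums for hit coverage and background base density set to 0; Trimmomatic and Bowtie2 are named in the submitters' processing notes. The deposited RPKM is normalized by the authors for length and library size, and the deposited score compares a reagent's merged libraries with their control on a scale of 0 to 1. The profiles give no reads per position, which leaves the number behind a single score, and its precision, unknown. Here, 16 scores outside 0 to 1 in 3 rows (0 in ABL1) were left out. Gene names came from GENCODE release 44, which named 20111 of 20512 rows; 15325 had the reference length. The ABL1-201 row has 188 nt more than the reference, placed at the 5′ end because the icLASER in vitro contrast of G with C and U peaked there (0.242, next best 0.0817); the extra bases were given no coordinates. Exon, region and base values are in row positions, 1-based. Intervals are Wilson at 95%. Windows were 30 or 100 nt, correlations needed 100 shared positions, region medians 50, and first-exon shares 20 scored positions. Named genes were the members, the 3 nearest in log2 RPKM, and from the pathway list those absent and the 3 highest and lowest RPKM ratios; a gene's row was the one in most profiles with the highest mean RPKM. The members and lists were chosen with earlier results of these data known. One other listed marker is not reported here. Functions were tested on simulated data. Python 3.11.15, numpy 2.4.6, scipy 1.17.1 and matplotlib 3.10.9 were used.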

Additional observations from a re-analysis of the deposited data

Results flagged for a closer look

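The reagents gave opposite directions for ABL1-201 between conditions: the mean score in vivo minus in vitro was 0.0257 with icSHAPE and −0.0371 with icLASER. With each profile scaled by its own mean score, the difference was 0.00302 with icSHAPE and −0.0405 with icLASER. The RPKM ratio in vivo over in vitro was on opposite sides of 1 as deposited, at 1.07 with icSHAPE and 0.767 with icLASER. Divided by the median ratio of all rows, both ratios were below 1, at 0.973 and 0.711. The difference between the reagents was not tested, since each value comes from 1 merged profile per condition, and the reagents also differ in their controls and library numbers.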

How the results depend on the processing

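No paired analysis was possible because the replicates were merged into 1 profile per reagent and condition, and leaving out a replicate could not be run for the same reason. BCR gave no value under any alternative. ABL1-202 has no ratio or difference between conditions, being in 1 profile.

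Values below follow the order icSHAPE in vitro, icSHAPE in vivo, icLASER in vitro, icLASER in vivo unless said otherwise, and no cause was tested. Dividing the RPKM ratio by the median ratio of all rows, or of rows with at least 10 RPKM, gave 0.973 or 0.969 with icSHAPE, across 1, and 0.711 or 0.657 with icLASER. The share of scores above 0 in exon 1 minus later exons was −19.3, −25.2, −32.4 and −26.2 points with the boundary moved to exon 3, −18.4, −15.2, −39.9 and −14.6 in the coding sequence only, and −31.1 in ABL1-202. The share of positions scored differed by −32.1 (icSHAPE) and −37.3 (icLASER) points at exon 3, by −36.7 and 0 in the coding sequence only, by −0.271 in ABL1-202, and by −21.9 with icSHAPE in the part of exon 1 that the reference holds (chosen after seeing the data). Without scores of 0, the mean of exons 2 to 11 was 0.386, 0.297, 0.290 and 0.460, and the coding sequence minus 3′ region mean was 0.289, 0.207, 0.229 and 0.359, the last opposite in sign to −0.0571 with them. ABL1-202 had a mean of 0.162 in exons 2 to 11. The reactive share of the coding sequence minus the 3′ region was 10.8, 13.5, 16.3 and −5.25 points at a threshold of 0.3, and 6.67, 5.78 and 5.89 in the first 3 profiles at 0.8. The reactive share of exons 2 to 11 was 17.2%, 19.6%, 20.6% and 17.2% at 0.3, and 6.67%, 6.71%, 6.46% and 7.15% at 0.8.

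The median difference between conditions over positions was 0 with both reagents. With each profile scaled by its own mean the icSHAPE difference was 0.00302, and without the run of windows at the 3′ end, an alternative chosen after seeing the data, the icLASER difference was −0.0764. With scores moved 1 nt downstream, A minus C was 0.2003 and 0.252 with icSHAPE and G minus C 0.0460 and 0.0305 with icLASER; moved upstream these were 0.0560, 0.0412, 0.0304 and 0.0136. Spearman's rho between conditions was 0.407 with icSHAPE and 0.244 with icLASER. Of 77 alternative values, the other 15 stayed close to the reported value. The number of reads behind a score is unknown, so a score of 0 may stand for few reads.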
